A study of Mus musculus with 10 samples.

Results

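Lyz1 and Lyz2 are the mouse's 2 neighbouring genes for lysozyme of the conventional type, and they are described here across 5 groups of a myeloid progenitor line that carries a lysozyme reporter. The members were taken by gene symbol: of 77720 listed transcripts that matched GENCODE M21, covering 26227 genes, 1 belonged to Lyz1 and 1 to Lyz2. The series holds 10 RNA libraries of the ER-Hoxa9-Lys-GFP line, cultured from the C57BL/6 strain in medium with serum and stem cell factor, 2 libraries in each group. All 10 libraries carry the ER-Hoxa9 fusion, whose activity depends on estradiol (E2), and the Lys-GFP reporter. The untreated group kept E2. In the 24 h, 40 h and 72 h groups cells spent 24, 40 or 72 h without E2 and the following 96, 80 or 48 h with E2 restored, and in the 120 h group E2 was absent for 120 h. The series asks when such cells can no longer return to the progenitor state once E2 is restored.

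Lysozyme cuts the sugar backbone of peptidoglycan in bacterial cell walls. Neutrophils store it in granules, and monocytes and macrophages make and secrete it. In the mouse a gene duplication left a form known mainly from Paneth cells of the intestine, Lyz1 or lysozyme P, beside a form known mainly from myeloid cells, Lyz2 or lysozyme M. The widely used Lys-GFP knock-in mouse has green fluorescent protein placed in the Lyz2 gene. The labels name the reporter but give neither its locus nor the number of copies in this line, and the GFP transcript was not analysed here.

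Both genes lie on chromosome 10 of GRCm38, on the minus strand, with 4 exons each. Lyz2 spans chr10:117277331-117282321 and Lyz1 spans chr10:117287797-117292868, 5475 bases apart, and no other annotated gene overlaps the pair. Their coding sequences have the same length, 447 bases, and differ at 22 of them, which is an identity of 95.1%. Bases 1 to 300 of each, which hold 20 of the 22 differences, are printed because the values below depend on reads being assigned to one copy or the other. Capitals mark the bases at which the copies differ, 5′ to 3′ from the start codon.

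Lyz1: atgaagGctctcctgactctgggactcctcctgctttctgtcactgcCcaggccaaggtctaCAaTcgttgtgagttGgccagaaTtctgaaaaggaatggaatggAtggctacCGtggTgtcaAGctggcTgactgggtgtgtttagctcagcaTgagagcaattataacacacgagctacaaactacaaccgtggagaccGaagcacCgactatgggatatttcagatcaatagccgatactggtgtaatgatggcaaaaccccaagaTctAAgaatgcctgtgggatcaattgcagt
Lyz2: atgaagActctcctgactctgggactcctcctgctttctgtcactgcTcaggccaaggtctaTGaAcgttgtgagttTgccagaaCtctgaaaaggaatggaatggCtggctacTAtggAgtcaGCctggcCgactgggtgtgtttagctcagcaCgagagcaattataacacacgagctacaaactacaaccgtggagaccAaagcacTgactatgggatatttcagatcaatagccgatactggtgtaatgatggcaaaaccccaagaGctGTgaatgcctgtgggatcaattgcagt

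Of the differing bases of the coding sequence, 20 lie in bases 1 to 300 and 2 in the rest. The longest stretch that the copies share is 118 bases. The annotated transcripts were 96.0% identical over their aligned length. Of the 50-base windows of the Lyz1 transcript, 16.1% occur unchanged in Lyz2, and this share was 6.22% for 75-base and 2.06% for 100-base windows. The sources used here give neither the read length nor the handling of reads that match both copies, so values of either gene may hold some reads of the other.

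The values are RPKM, a read count scaled by the length of the transcript and the size of the library, so levels can be compared between genes. Lyz1 stood at 0.147 and 0.121 RPKM in the untreated libraries (replicates 1 and 2, in this order throughout), at 0.103 and 0.104 in the 24 h group, and at 0.0450 and 0.168 in the 40 h group. It stood at 21.1 and 63.2 RPKM in the 72 h group and at 745 and 1012 RPKM in the 120 h group. The 6 libraries with E2 kept or removed for up to 40 h lay within one low range, both 72 h libraries lay far above it, and both 120 h libraries lay above the 72 h libraries.

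Lyz2 stood at 0.298 and 0.233 RPKM in the untreated libraries, at 0.264 and 0.182 in the 24 h group, and at 0.220 and 0.336 in the 40 h group. Its 72 h values were 0.210 and 0.426 RPKM and its 120 h values were 2.68 and 4.29 RPKM. The 72 h libraries overlapped the 6 libraries with shorter or no withdrawal, and the 120 h libraries were the 2 above that range. Bulk RNA cannot tell a change in the number of cells that express a gene from a change in the RNA of each cell.

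**Figure D1:**
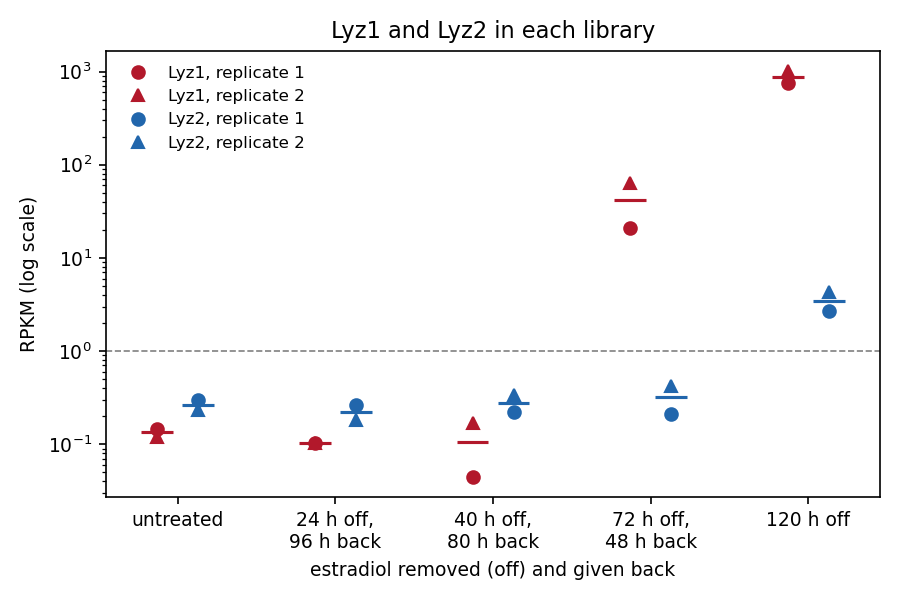
RPKM (log axis) of Lyz1 (red) and Lyz2 (blue) in each of the 10 libraries, by group, with circles for replicate 1, triangles for replicate 2, short bars for the group mean and a dashed line at 1 RPKM, the least value that the filter on low values asks for in 2 libraries. Lyz1 is above the line in the 72 h group (21.1 and 63.2) and the 120 h group (745 and 1012), and Lyz2 in the 120 h group (2.68 and 4.29).

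The low values rested on few reads. In the 6 untreated, 24 h and 40 h libraries 10 to 39 reads were recovered for Lyz1 and 42 to 78 for Lyz2, out of denominators of about 173620000 to 204390000 reads per library over the whole series. The limit that a count of 0 allows, 3 reads, was 0.0116 RPKM for Lyz1 in the first untreated library. Reads were therefore assigned to both genes in every library, and some of them may come from the other copy. At 72 h the reads were 5092 and 14659 for Lyz1 against 51 and 99 for Lyz2, and at 120 h they were 163317 and 259403 against 589 and 1103.

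Differences were tested with limma on log2(RPKM + 1) across 13004 genes with at least 1 RPKM in at least 2 libraries, with Benjamini-Hochberg (BH) adjustment over all of them and calls at an adjusted p under 0.05. Lyz1 reached this filter through the 72 h and 120 h libraries and Lyz2 through the 120 h libraries alone, so their entry into the test already required a high value there. The labels do not say whether the 2 libraries of a group came from separate cultures, and the p-values measure the spread between libraries, which may be technical. For each gene 1 spread was pooled over the 5 groups, so the SE of Lyz1 was 0.41 in every comparison.

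After 120 h without E2 both members were higher than in untreated cells, by very different amounts. The mean of Lyz1 was 878 ± 189 RPKM (SD, n = 2) against 0.134 ± 0.0184 (SD, n = 2), a ratio of 6555. Its log2 difference was 9.58 (SE 0.41, 95% interval 8.64 to 10.52, adjusted p = 2.49e-07 by limma with BH), the 13th highest of the 13004 genes. The mean of Lyz2 was 3.49 ± 1.14 RPKM (SD, n = 2) against 0.266 ± 0.0460 (SD, n = 2), a ratio of 13.1, and its log2 difference was 1.80 (SE 0.17, 95% interval 1.42 to 2.19, adjusted p = 1.86e-05 by limma with BH). Adding 1 to RPKM compresses low values: with a pseudocount of 0.1 the log2 difference of Lyz2 was 3.26, and limma voom on the recovered reads gave 3.68. In this comparison 80.3% of all tested genes were called in either direction (27.5% higher and 52.7% lower, or 39.4 and 38.6% after median-of-ratios scaling), so the call itself says little about the lysozyme genes and the sizes carry the description. The median over all tested genes was -0.36 on the log2 scale, which that scaling removes. The scaled differences were 9.94 for Lyz1 and 2.10 for Lyz2.

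The 24 h group did not separate from the untreated group in either gene. The log2 difference was -0.039 for Lyz1 (95% interval -0.98 to 0.90) and -0.050 for Lyz2 (95% interval -0.44 to 0.34), with adjusted p = 1 for both by limma with BH. Of all tested genes, 0% were called here by limma, and 0 by limma voom, while 365 had an unadjusted p under 0.05. The 40 h group gave -0.038 for Lyz1 (95% interval -0.98 to 0.90, adjusted p = 0.989 by limma with BH) and 0.013 for Lyz2 (95% interval -0.37 to 0.40, adjusted p = 0.991), against 4.28% of genes called (0.93% higher and 3.35% lower). Between 40 h and 24 h the differences were 0.0017 for Lyz1 and 0.063 for Lyz2, both with adjusted p = 1 by limma with BH, against 0.285% of genes called (0.169% higher and 0.115% lower). A p above the threshold does not show equal levels, and these intervals on the log2(RPKM + 1) scale leave room for changes that are large in proportion to values this low. The intervals of Lyz1 use the spread pooled over the 5 groups, to which its 72 h pair, at 21.1 and 63.2 RPKM, adds most.

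The 72 h group set the members apart. Lyz1 averaged 42.1 ± 29.8 RPKM (SD, n = 2), a ratio of 314 to the untreated mean, with a log2 difference of 5.05 (SE 0.41, 95% interval 4.11 to 5.99, adjusted p = 3.39e-05 by limma with BH), the 16th highest of all tested genes. Lyz2 averaged 0.318 ± 0.153 RPKM (SD, n = 2), with a log2 difference of 0.054 (SE 0.17, 95% interval -0.33 to 0.44, adjusted p = 0.814 by limma with BH). In this comparison 43.9% of genes were called, 21.6% higher and 22.3% lower. The size of the Lyz1 difference depended on how low values were treated: it was 7.29 with a pseudocount of 0.1 and 8.06 by limma voom on reads. The 72 h libraries of Lyz1 lay apart, at 21.1 and 63.2 RPKM, so its interval from the pooled spread may be too narrow here.

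Set against the 40 h group, the 72 h group had a Lyz1 log2 difference of 5.09 (SE 0.41, adjusted p = 6.27e-05 by limma with BH), the 4th highest of all tested genes, with 27.7% of genes called (13.9% higher and 13.8% lower). The Lyz2 difference over the same step was 0.041 (adjusted p = 0.876 by limma with BH). With limma voom on reads the Lyz1 difference over this step was 8.65. E2 was present for the last 48 h of the 72 h cultures, and their RNA was taken after that time.

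Lyz1 stood far lower in the 72 h group than in the 120 h group. The difference of 120 h over 72 h was 4.53 on the log2 scale for Lyz1 (SE 0.41, adjusted p = 2.00e-05 by limma with BH), a ratio of 20.9 between the means. For Lyz2 it was 1.75 (SE 0.17, adjusted p = 2.85e-05 by limma with BH), a ratio of 11.0, or 3.11 with a pseudocount of 0.1 and 3.51 by limma voom. Here 77.4% of genes were called, 26.4% higher and 51% lower, or 38.4 and 33.5% after median-of-ratios scaling. The 72 h mean of Lyz1 was 4.80% of its 120 h mean, with 2.40 and 7.19% for the single 72 h libraries. For Lyz2 it was 9.12%, with 6.02 and 12.2% for the single 72 h libraries. This share was also taken over the 1867 genes called higher at 120 h than untreated, by at least 2-fold in RPKM + 1. Their median was 26.9%, with quartiles of 10.7 and 45.8%. By their means both lysozyme genes thus lay below the lower quartile of these genes, while the second 72 h library of Lyz2 lay above it. The 72 h level of Lyz2 did not separate from its untreated level. A gene without a change at 72 h has a lower share the larger its rise at 120 h, so the share also reflects the size of that rise.

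Ordered by mean level, Lyz1 ran from the 24 h group (0.104 RPKM) through the 40 h (0.107) and untreated (0.134) groups to the 72 h (42.1) and 120 h (878) groups. The neighbours within the first 3 did not separate, and the steps to 72 h and to 120 h did. Lyz2 ran from the 24 h group (0.223 RPKM) through the untreated (0.266), 40 h (0.278) and 72 h (0.318) groups to the 120 h group (3.49), and the step to 120 h was the one called.

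The balance between the copies in the 72 h and 120 h libraries was the reverse of that in the other libraries. In the 6 untreated, 24 h and 40 h libraries Lyz1 was the lower of the pair, at 0.205 to 0.571 times the RPKM of Lyz2. These low ratios rest on 10 to 39 reads of Lyz1 and 42 to 78 of Lyz2, and reads that match both copies may weigh on them. In the 72 h libraries Lyz1 was 100.3 and 148 times Lyz2, and in the 120 h libraries 278 and 236 times. Lyz1 therefore made up 17.0 to 36.4% of the summed lysozyme RPKM in the first 6 libraries and 99.0 to 99.6% in the last 4.

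**Figure D2:**
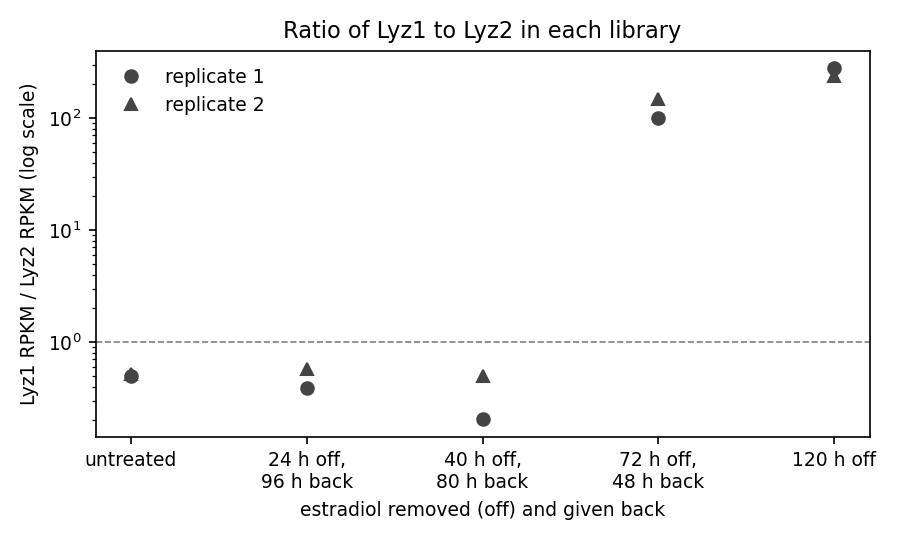
Ratio of Lyz1 RPKM to Lyz2 RPKM (log axis) in each of the 10 libraries, with circles for replicate 1, triangles for replicate 2 and a dashed line at equal levels. The ratio is 0.205 to 0.571 in the 6 libraries to the left and 100.3 to 278 in the 4 libraries to the right.

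As an exact permutation test over single values, the between-group spread was compared over all 945 ways to split the 10 libraries into 5 pairs, which can give no p below 0.00106. The log2 difference between Lyz1 and Lyz2 gave p = 0.00741 (BH-adjusted over 3 quantities, 0.0206) in this exact test. Lyz1 alone gave an exact p of 0.0138 (adjusted 0.0206). Lyz2 alone gave an exact p of 0.0910 (adjusted 0.0910), from 86 of the 945 splits, which was not past the threshold. Splits that keep the 120 h pair together and re-pair libraries of like low level score nearly alike. This test therefore could hardly show a rise of Lyz2 confined to 120 h, whatever its size. Re-pairing of the low libraries also weighs on the p-values of Lyz1 and of the difference.

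Lyz2 was the lower copy by far in the last 4 libraries. Lyz2 stood at 0.997 and 0.674% of Lyz1 in the 72 h group and at 0.360 and 0.424% in the 120 h group, below the 16.1% of 50-base windows and the 2.06% of 100-base windows that Lyz1 shares with Lyz2. Whether reads of Lyz1 were counted for Lyz2 was not tested. The part that a reporter in the Lyz2 locus could play in the Lyz2 value was not tested either.

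The members' places among 17238 protein-coding genes show the same contrast. Lyz1 ranked 11270 to 12099 from the top in the first 6 libraries, 3439 and 1055 in the 72 h group, and 69 and 30 in the 120 h group, where it took 0.180 and 0.271% of all coding RPKM. Lyz2 ranked 10832 to 11271 in the first 6 libraries, 11016 and 10723 in the 72 h group, and 8598 and 7655 in the 120 h group. Lyz1 thus moved from below the middle of the order to the 100 most abundant coding genes, while Lyz2 came to rest near the middle.

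The 72 h libraries differed from each other in Lyz1 more than in most genes. The second 72 h library held 3.00 times the Lyz1 of the first, a ratio above 99.0% of the tested genes, and 2.03 times its Lyz2. All 12 mature neutrophil markers were also higher in the second library, with a median ratio of 1.60, and so were all 10 tested monocyte and macrophage markers, with a median of 1.36. Of the 19 tested genes of antibacterial granule proteins, 12 were higher (median 1.25). The median over all tested genes was 1.02, with 7046 of 12995 higher. In the 120 h group the second library held 1.36 times the Lyz1 and 1.60 times the Lyz2 of the first. There 8 of the 12 neutrophil markers (median 1.16) and 9 of the 10 monocyte and macrophage markers (median 1.23) were higher. The granule protein genes went the other way, with 5 of 19 higher (median 0.845). Over all tested genes 5680 of 12963 were higher (median 0.952). The part of the markers in the lysozyme differences was not tested. Without either 72 h library in turn, the Lyz1 difference of 72 h over untreated was 4.28 or 5.82 on the log2 scale and stayed called by limma with BH, where the lone 72 h library is assumed to vary like the other groups.

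Of 10 names in the lysozyme family list, 5 had a listed transcript. Lyzl4 and Lyzl1, which are known from the testis, reached at most 0.0460 and 0.0120 RPKM in any library, and Spaca5, a sperm acrosome protein, at most 0.0270. These relatives stayed near 0 in all groups, so Lyz1 and Lyz2 made up nearly all lysozyme family signal that was analysed.

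Among genes of antibacterial granule proteins, Lyz1 moved with the majority. The list held 20 genes, 19 of them tested. Not all of its members are antibacterial proteins, Bsg for example being a membrane glycoprotein. At 120 h 15 rose and 3 fell against untreated cells, with a median log2 difference of 7.97 against -0.36 over all tested genes, of which 27.5% rose and 52.7% fell. At 72 h 16 rose and 1 fell (median 2.94 against 0.018, with 21.6 and 22.3% of all genes). At 40 h 5 were higher, against 0.93% of all genes, among them Elane (neutrophil elastase, 1.68 and 3.19 RPKM untreated, 44.6 and 37.5 at 40 h) and Mmp8 (neutrophil collagenase, 1.18 and 1.48 untreated, 13.8 and 11.1 at 40 h). Lyz1 was not among the genes called at 40 h.

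At 120 h the mean of Lyz1 lay below those of 6 granule genes: Chil3, S100a9, S100a8, Ngp, Lcn2 and Ltf. Ltf, the iron-binding lactoferrin of secondary granules, stood at 2188 and 2405 RPKM, and Mmp8 just below Lyz1 at 587 and 920 RPKM. The mean of Lyz2 lay below 19 of the 20, the exception being the untested Bpi. Not every gene of the list was highest at 120 h. Mpo (myeloperoxidase) went from 2042 and 2433 RPKM untreated to 463 and 178 at 120 h, a log2 difference of -2.95 that was called, and Elane stood at 262 and 295 RPKM at 72 h and at 94.0 and 32.2 at 120 h, where it was still called higher than in untreated cells.

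**Figure D3:**
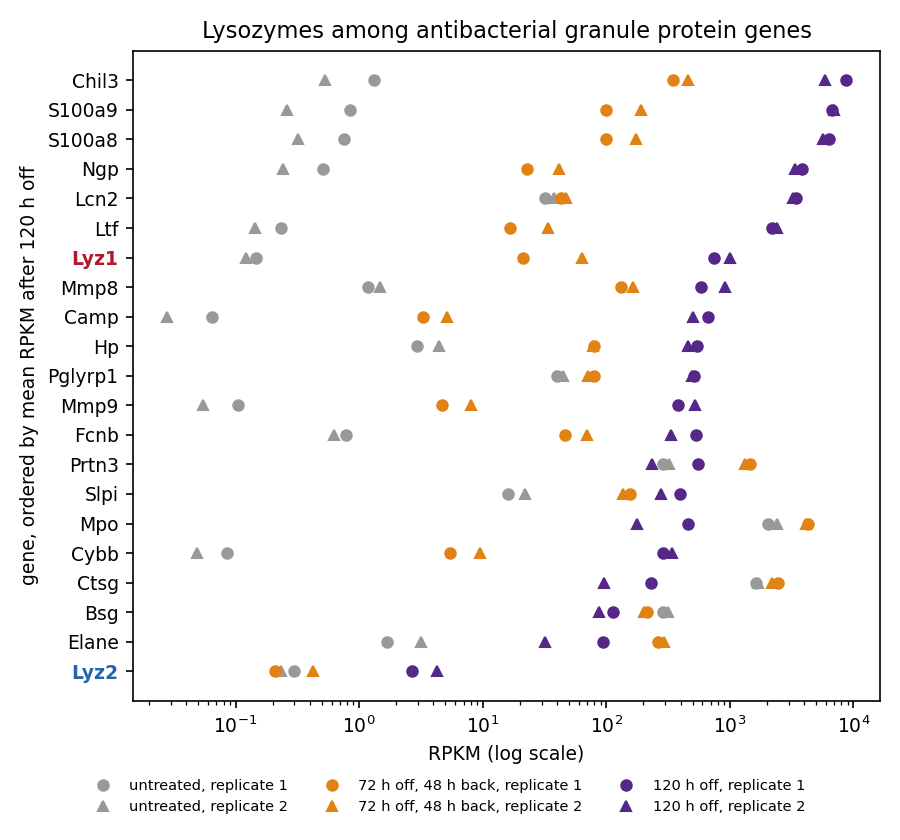
RPKM (log axis) of Lyz1, Lyz2 and 19 genes of antibacterial granule proteins in untreated (grey), 72 h (orange) and 120 h (purple) libraries, with circles for replicate 1 and triangles for replicate 2, ordered by the mean at 120 h. Lyz1 lies between Ltf and Mmp8 at 120 h (745 and 1012 RPKM), and Lyz2 is lowest (2.68 and 4.29 RPKM).

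The 72 h level as a share of the 120 h level places Lyz1 within this list. Over the 15 granule genes called higher at 120 h the share ran from 0.719% (Camp, the cathelicidin precursor) to 441% (Elane), with a median of 2.35%. Lyz1, at 4.80%, had 8 of the 15 below it.

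By the root mean square difference of log2(RPKM + 1) profiles over the 10 libraries, each centred on the untreated mean, the tested gene closest to Lyz1 among 10898 with an annotated name was Retnlg, a resistin-like secreted protein of neutrophils, at 0.247. Retnlg stood at 23.3 and 38.0 RPKM at 72 h and at 759 and 1100 RPKM at 120 h. Next came Stfa2l1 (0.666), Ltf (0.687), complement C3 (0.695) and Stfa2 (0.731). Stfa2l1 and Stfa2 are stefins, cysteine protease inhibitors of a family with near-identical copies, and are uncertain as single genes. Lyz2 lay 4.15 from Lyz1 on this measure. The genes closest to Lyz2 were Vnn3 (0.0656), Rab19 (0.0662), Ly6i (0.0692), Galnt9 (0.0831) and Cd300ld3 (0.0831), all of them at 1.81 to 4.37 RPKM at 120 h. The measure favours genes of a like level at 120 h.

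Markers of mature cells were higher at 72 h and 120 h, as Lyz1 was, while Lyz2 was called higher at 120 h but not at 72 h. The summed RPKM of 12 mature neutrophil markers was 50.4 to 70.3 in the first 6 libraries, 462 and 728 at 72 h, and 25126 and 24997 at 120 h; the defining marker Ly6g was 0.0440 and 0.0690 RPKM at 72 h and 11.7 and 16.2 at 120 h. At 120 h all 12 were called higher, against 27.5% of all tested genes, and 10 were at 72 h, against 21.6%. The summed RPKM of 11 monocyte and macrophage markers was 111 to 137 in the first 6 libraries, 794 and 912 at 72 h, and 2098 and 2234 at 120 h, with Csf1r at 199 and 285 RPKM at 120 h. Of the 10 tested, 9 were higher and 1 (Ccr2) lower at 120 h, and 8 were higher and 1 lower at 72 h. The 6 progenitor markers summed to 1561 and 1533 RPKM untreated and 107 and 75.7 at 120 h, and all 6 were called lower at 120 h, against 52.7% of all tested genes. The 6 mast cell, basophil and eosinophil markers summed to 186 to 382 RPKM in the first 6 libraries, 1532 and 1352 at 72 h, and 490 and 264 at 120 h, and of the 5 tested 3 were higher and 2 lower in both the 72 h and the 120 h group. The most abundant of them, Prg2 (eosinophil major basic protein), stood at 12.9 and 36.3 RPKM untreated and at 1484 and 1306 at 72 h. All 4 tested lymphoid markers were lower in both groups, with a list sum of 61.9 and 62.1 RPKM untreated and 2.97 and 2.86 at 72 h. Beside the monocyte, mast cell and lymphoid counts, 21.6% of all tested genes were higher and 22.3% lower at 72 h. At 120 h these shares were 27.5 and 52.7%, so most genes were called there.

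Lyz2 stood out by its low level beside these markers. Its 120 h mean lay below all 12 neutrophil markers and below all 10 tested monocyte and macrophage markers. Lyz1 at 120 h was below 6 of the 12 neutrophil markers and above all 10 tested monocyte and macrophage markers. Of 7 Paneth cell markers 1, Itln1, had a listed transcript, at 0 RPKM in 9 libraries and 0.0140 in 1, and the epithelial keratin gene Krt18 reached at most 0.0110 RPKM. The part of cell type composition in the lysozyme levels was not tested.

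Genes for sensing and handling peptidoglycan, the substrate of lysozyme, mostly rose after 120 h. Of 15 tested genes for peptidoglycan sensing and handling, 14 were higher and 1 lower at 120 h (median 1.63 against -0.36 over all genes, of which 27.5% were higher and 52.7% lower). At 72 h 7 were higher and 2 lower (median 0.42 against 0.018, with 21.6 and 22.3% of all genes). Nod2, the cytosolic sensor of muramyl dipeptide, stood at 0.114 and 0.0980 RPKM untreated and at 1.89 and 3.04 at 120 h. Tlr2, a receptor for bacterial lipoproteins, went from 1.29 and 1.04 RPKM to 141.6 and 176, a log2 difference of 6.20 (adjusted p = 1.20e-08 by limma with BH). Pglyrp1, which binds peptidoglycan and is also in the granule list, went from 40.0 and 44.3 RPKM to 514 and 495. Slc15a3, a lysosomal transporter of small peptides and muramyl dipeptide, fell to 2.51 and 4.21 RPKM at 72 h from 12.2 and 11.3, and stood at 66.8 and 107 at 120 h. The member called lower at 120 h was Slc46a3, with a log2 difference of -0.50 that was no longer called after median-of-ratios scaling (-0.23, adjusted p = 0.168 by limma with BH).

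A list of myeloid transcription factors of lysozyme regulatory DNA held 11 tested genes. At 120 h 5 were higher and 5 lower (median 0.21), or 6 and 4 after median-of-ratios scaling. At 72 h 6 were higher and 2 lower (median 0.52). Over all genes 80.3% were called at 120 h (27.5% higher and 52.7% lower, or 39.4 and 38.6% after that scaling). At 72 h 43.9% were called (21.6% higher and 22.3% lower). Most genes were thus called at 120 h in the list and over all genes, and single genes are given instead. Cebpe, a C/EBP factor of late granulocyte development, went from 6.80 and 7.60 RPKM untreated to 41.6 and 36.3 at 72 h and 132 and 98.0 at 120 h. Spi1, which encodes PU.1, went from 39.8 and 38.9 RPKM to 69.4 and 68.4 and then to 185 and 175. Cebpa, an earlier C/EBP factor, fell from 55.0 and 56.2 RPKM to 17.9 and 13.2 at 120 h. Myb, a progenitor factor, did not separate at 72 h (219 and 267 RPKM against 235 and 244) and was 39.5 and 28.8 RPKM at 120 h. The call of Gabpa, an ETS factor, at 120 h (-0.25) turned to 0.17 with adjusted p = 0.106 by limma with BH after median-of-ratios scaling.

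The DNA just before the start sites is shown because the copies moved apart while lying next to each other. These are RefSeq sequences of GRCm38.p6, minus strand, from position -250 to -51 before the RefSeq start, 5′ to 3′, with capitals at bases that differ between the copies or have no partner. The Lyz1 stretch is chr10:117292919-117293118 and the Lyz2 stretch is chr10:117282323-117282522.

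Lyz1: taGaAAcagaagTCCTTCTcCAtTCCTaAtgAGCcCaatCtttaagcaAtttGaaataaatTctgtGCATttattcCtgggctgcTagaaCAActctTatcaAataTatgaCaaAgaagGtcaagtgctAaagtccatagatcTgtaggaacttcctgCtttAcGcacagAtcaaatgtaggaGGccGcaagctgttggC
Lyz2: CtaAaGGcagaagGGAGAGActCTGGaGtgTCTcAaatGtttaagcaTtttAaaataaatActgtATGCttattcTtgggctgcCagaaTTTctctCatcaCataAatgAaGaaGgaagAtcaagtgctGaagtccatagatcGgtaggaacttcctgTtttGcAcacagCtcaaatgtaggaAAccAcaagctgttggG

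Over the 250 bases before the start the copies were 80.6% identical, 92% in the stretch nearer to the start and 69.1% in the equally long stretch farther from it. The ETS core AGGAA, searched on both strands like every motif here, matched 4 times in each 250-base window, and 60.3% of 32851 promoters of the same length hold it. GAGGAA, a form bound by PU.1 that contains the ETS core, matched in neither (23.3% of promoters). TTNNGNAA, a C/EBP-type pattern, matched once in each, starting at -209 in Lyz1 and at -55 in Lyz2 (36.8% of promoters). The RUNX pattern TGTGGT matched once in Lyz2, at -66, and not in Lyz1 (14.0% of promoters). TATAAA matched in neither (12.4% of promoters). These are matches of letters, and no binding was measured.

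Genes around the pair did not share the course of Lyz1. Of the 4 nearest listed coding genes on each side, 6 were tested. At 72 h Cpsf6 (0.42), Frs2 (0.40) and Yeats4 (0.28) were called higher on the log2 scale and none lower, over a range of -0.37 to 0.42 for all 6, against 5.05 for Lyz1. These 3 of 6 compare with 43.9% of all genes called at 72 h. At 120 h Yeats4 (0.95) and Mdm2 (0.57) were called higher and Cct2 (-1.68) and Slc35e3 (-1.08) lower, 4 of 6 against 80.3% of all genes. After median-of-ratios scaling these 4 kept their direction and call, and Cpsf6 (-0.13 as deposited, not called) was called at 0.29. The gene nearest to the pair, 9530003J23Rik at 38627 bases, has Lyzf1 as a RefSeq synonym and stood at 0 to 0.00900 RPKM. Cpsf6, the nearest on the other side at 51804 bases, stood at 18.8 and 18.1 RPKM untreated and 17.6 and 16.0 at 120 h.

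**Figure D4:**
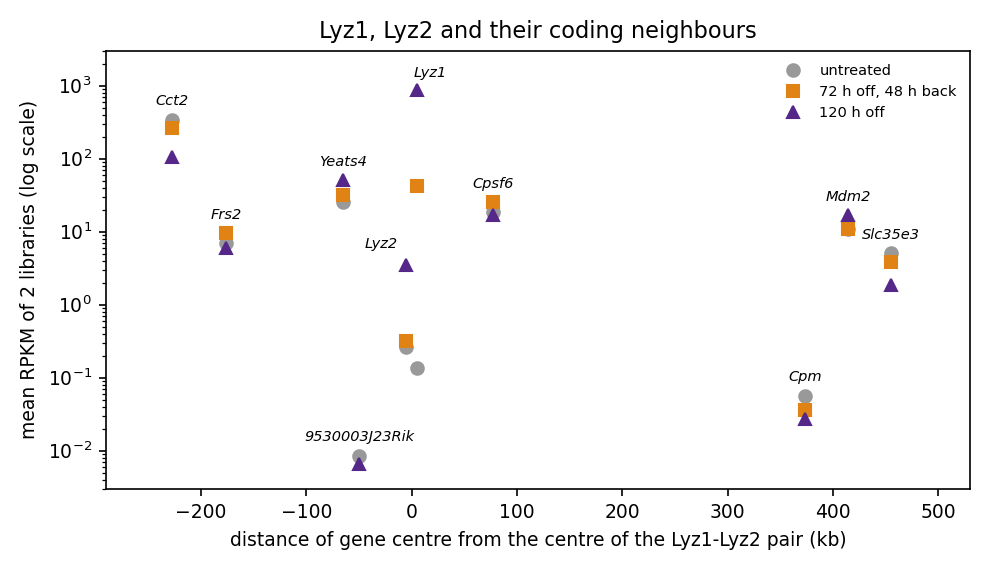
Mean RPKM (log axis) of Lyz1, Lyz2 and their 8 nearest coding neighbours, by distance of the gene's centre from the centre of the pair, in untreated (grey circles), 72 h (orange squares) and 120 h (purple triangles) cells; a mean of 0 is not drawn. Lyz1 goes from 0.134 to 42.1 and 878 RPKM, while the tested neighbours changed by between -1.68 and 0.95 on the log2 scale at 120 h.

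The fusion's own parts were read as a check on the line. Hoxa9 stood at 50.2 to 102 RPKM and Esr1, whose hormone-binding part the fusion borrows, at 5.87 to 11.9 RPKM over the 10 libraries. The groups were not alike. Hoxa9 stood at 50.2 and 60.0 RPKM untreated and at 94.5 and 97.9 at 120 h. Esr1 stood at 5.87 and 7.19 RPKM untreated and at 10.9 and 11.9 at 120 h. These reads cannot tell fusion from endogenous transcripts.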

How the data were processed

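The deposited values were RPKM per Ensembl transcript, 1 file per library with 79535 transcripts, per the file headers. Per the submitters' processing notes, alignment used STAR and the GRCm38 build. The sources used here name no counting program, annotation release or strand setting. Identifiers were matched to GENCODE M21 (97.7% matched). Multiplied by transcript length, low values gave whole reads in 100% of values tested (tolerance 0.02 reads), which gave reads and depth. For Lyz1 the GENCODE length of 1263 bases gave whole reads in 6 of 6 low values. For Lyz2 the GENCODE length of 1316 did so in 3 of 8. A length of 1266, found by a search for whole reads and used for its reads, did so in 8 of 8. The files hold older versions of both transcripts, and the annotated lengths of those versions were not looked up.

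Each gene was represented by 1 transcript chosen from the annotation. log2(RPKM + 1) was fitted with limma 3.58.1 in R 4.3.3 (trend, group as the only term, 5 residual and 3.04 prior degrees of freedom), 2-sided, for 7 comparisons. The fit was tested on simulated data for 120 h over untreated. Changes were planted there in genes with higher untreated levels than Lyz1 and Lyz2, so the simulation does not cover values as low as theirs. Named genes were the members, the lysozyme family, the 4 coding neighbours on each side, the 5 genes with the closest profile, and per list up to 4 called genes with the largest change and 2 uncalled ones with the highest RPKM. Other genes given as examples of a list were chosen after their values were seen. The members and lists were chosen with earlier results of these data known. Counts of list genes are descriptions, without a test of the list. The labels do not say whether replicate numbers pair libraries across groups, and the reported fit holds no replicate term, although same-numbered libraries deviated together. One listed marker gene is not reported here by name.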

Additional observations from a re-analysis of the deposited data

How the results depend on the processing

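Every call of Lyz1 and Lyz2, and every absence of a call, stayed on its side of the threshold in each alternative run: another pseudocount, no filter, both other scalings, the replicate block, fits of 2 groups, array weights, limma voom on reads, the most abundant transcript and each library left out in turn, with the genes tested held fixed. A group left with 1 library is assumed to vary like the other groups, whose spread the fit uses. Differences that were not called changed sign. With quantile normalization Lyz2 was at -0.021 (40 h over untreated), -0.057 (72 h over untreated) and -0.036 (72 h over 40 h). Leaving out 1 library, the differences of Lyz2 ranged from -0.052 to 0.079 for 40 h over untreated, from -0.064 to 0.17 for 72 h over untreated and from -0.077 to 0.16 for 72 h over 40 h, and those of Lyz1 for 40 h over untreated from -0.12 to 0.043. Leaving out 1 library, Lyz1 differences ranged from 9.36 to 9.80 at 120 h and from 3.76 to 5.30 for 120 h over 72 h. The Lyz2 difference at 120 h ranged from 1.54 to 2.06 in the same runs. Other runs went outside these ranges. At 120 h the values given above after median-of-ratios scaling were higher for both genes, as were those of Lyz2 with a pseudocount of 0.1 and by limma voom.

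The number of genes called over all genes moved more. For 24 h over untreated it was 0 in the reported fit, 2 with a pseudocount of 0.1, 3 without a filter, 4 with the 2 groups alone, 34 with array weights and 3 without the 120 h group (an alternative chosen after seeing the data). For 40 h over untreated it was 557, against 1988 with the 2 groups alone, 2859 with array weights and 1797 without the 120 h group. For 40 h over 24 h it was 37, against 160, 493 and 238 in the same order. For 72 h over 40 h it was 3604, and 6082 without the 120 h group. Leaving out 1 library gave 0 to 3 (24 h), 41 to 1789 (40 h), 3583 to 7877 (72 h), 0 to 237 (40 h over 24 h) and 1977 to 6082 genes (72 h over 40 h). The high end at 24 h, 40 h, 40 h over 24 h and 72 h over 40 h came from leaving out either 120 h library, and the low end at 40 h and 72 h from leaving out an untreated library; the cause was not tested. Same-numbered libraries deviated together with correlations of 0.034 to 0.639 over 10 pairs of groups, 8 of them over 0.1 and the highest between the 72 h and 120 h groups. With the replicate block 10787 genes were called at 120 h, against 10440, and 693 at 40 h. The Lyz1 values of the untreated, 24 h and 40 h groups rest on 10 to 39 reads, and the smallest change detectable there was not tested.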
